A study of Mus musculus with 6 samples.

Results

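The nuclear-encoded subunits of the mitochondrial respiratory chain and ATP synthase were examined in ventricles of mouse embryonic hearts. Members were protein-coding genes chosen by symbol: Nduf genes with a numbered a, b, c, s or v suffix (complex I), Sdha to Sdhd (complex II), 8 named Uqcr genes (complex III), symbols beginning Cox4 to Cox8 (complex IV) and symbols beginning Atp5 (complex V). Of 25006 genes in the count files, 83 were members: 36 in complex I, 4 in complex II, 8 in complex III, 18 in complex IV and 17 in complex V. Of these, 81 had at least 60 counts summed over the 6 libraries and were tested, among 14773 genes that passed the same limit. The complex IV genes Cox8c and Cox7b2 did not pass. Cox8c stood at 0 counts in every library, where 3 counts equal 0.0677 to 0.0852 CPM (counts scaled to library size), and Cox7b2 had 9, 3 and 6 counts in the controls and 9, 7 and 2 in the nulls. The symbols do not map onto the complexes exactly. Atp5s matches by symbol although its product is not an ATP synthase subunit, the product of Cox7a2l is a supercomplex factor, the product of Ndufa4 is a complex IV subunit, and the genuine subunit genes Cyc1 and Ndufab1 carry symbols outside the rule.

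The 6 libraries came from hearts at embryonic day 17.5 on the NMRI strain background, 3 labelled as wild-type controls and 3 as Prox1 conditional nulls (VecadCreERT2; Prox1f/f). The protocol describes mating of Prox1 f/f females to VecadCreERT2; Prox1f/f males, with the plug counted as day 0.5, and injection of the females with tamoxifen, 5 mg per 40 g of body weight, at E13.5 and E14.5. Controls and nulls therefore share the drug, and how a wild-type label fits that cross is not given. The Cre is inducible and driven by the VE-cadherin promoter, which is active in endothelial cells, while the cells of the ventricle rich in mitochondria are the cardiomyocytes. The question of the series is which pathways in the growing heart are under the influence of its lymphatic vessels, whose endothelium requires Prox1. Whether each library is a separate embryo is not in the labels. The p-values then measure only how these samples scatter, which may be technical.

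The respiratory chain passes electrons from NADH through complex I, or from succinate through complex II, to complex III and then complex IV, which reduces oxygen. Complexes I, III and IV pump protons across the inner mitochondrial membrane, and ATP synthase (complex V) uses the gradient to make ATP. Complexes I, III, IV and V combine subunits encoded by mitochondrial DNA with those encoded in the nucleus, whereas complex II is wholly nuclear. The fetal heart relies much on glycolysis and lactate, and its oxidative capacity rises around and after birth. Transcription factors such as NRF1 and GABPA, with the coactivator Ppargc1a, are known to act on many of these nuclear genes.

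Libraries held 35195544 to 44330594 counts and 17751 to 17960 detected genes. The 13 mitochondrial-encoded genes are listed at 0 in every library, so only the nuclear part of each complex could be measured. Prox1 was not lower in the nulls, at 147 ± 3.16 CPM in controls and 164 ± 3.91 CPM in nulls (SD, n = 3). The log2 fold change was 0.15 ± 0.03 (SE), with an adjusted p of 0.0293 by edgeR's quasi-likelihood test with Benjamini-Hochberg adjustment. A count over the whole gene does not check a deletion confined to endothelial cells. Null 1 and null 3 carried both Y-linked counts (9218 and 9952) and Xist counts (1798 and 5738), while control 1 and control 2 had 28 and 29 Xist counts with their Y-linked counts. Control 3 and null 2 were the libraries with high Xist (49485 and 50586 counts) and few Y-linked counts. The tissue label fits the markers, with 14 cardiomyocyte genes together at 86786 to 94587 CPM and 5 atrial genes at 611 to 1491 CPM. Across all genes, 794 of 14773 were called, 355 higher and 439 lower in the nulls.

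The subunit transcripts of the nulls stood where those of the controls stood. Together the 83 genes made up 3.30%, 3.22% and 2.97% of the counts in the 3 controls and 3.14%, 3.16% and 3.20% in the 3 nulls. On the CPM scale, normalised by the trimmed mean of M values (TMM), they summed to 33246, 32065 and 29591 in controls and to 31509, 31482 and 32088 in nulls. All 3 null sums lay inside the range of the controls, and the null mean was 100.2% of the control mean. By complex, the null mean of the summed CPM was 100.6% of control for complex I, 98.0% for complex II, 99.9% for complex III, 98.8% for complex IV and 100.8% for complex V. Of the 81 tested genes 1 was called higher, Ndufa1, and none lower by edgeR at an adjusted p under 0.05, where 5.37% of all genes were called. At an unadjusted p under 0.05, 8 members passed, 1 higher and 7 lower, while 20.6% of all genes passed. DESeq2 called 1 member higher and 2 lower, where it called 7.91% of all genes, and limma-voom called none, where it called 4.51%.

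The size of the differences was small as well as their number. The median log2 fold change was -0.0043 over the 81 members and -0.0040 over all 14773 genes. By complex the medians were 0.0032 for complex I, -0.024 for complex II, -0.021 for complex III, -0.019 for complex IV and -0.00028 for complex V. The median absolute log2 fold change was 0.038 in members and 0.089 in all genes. In log2, 5 of 81 members against 3566 of 14773 genes differed by more than 0.2. Members are mostly abundant, and over the 9802 genes with a mean above 10 CPM the median absolute log2 fold change was 0.065. Above that level, 4 of 77 members and 1084 of 9802 genes differed by more than 0.2 in log2. The 95% interval of the fold change lay within 1.2-fold in either direction for 65 of 81 members, which was the case for 7355 of 14773 genes, and within 1.5-fold for 78 of 81. Among genes with a mean above 10 CPM, the intervals within 1.2-fold numbered 65 of 77 members and 7162 of 9802 genes. The 3 members with wider intervals were Ndufa12, Ndufs5 and Atp5g1.

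**Figure D1:**
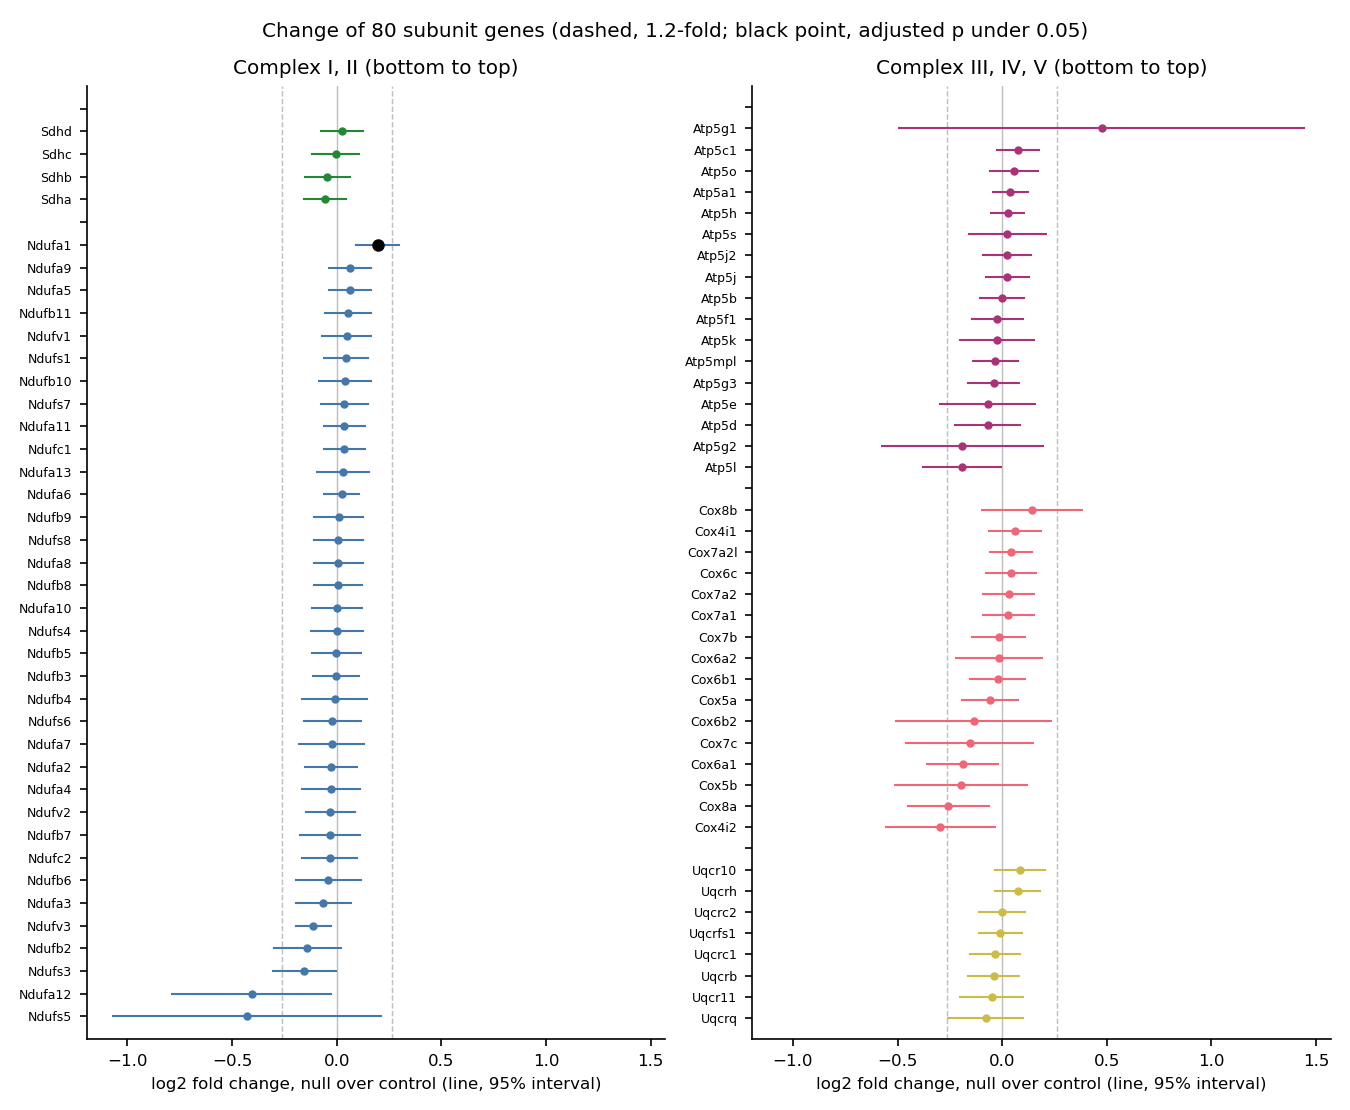
Log2 fold change of 80 of the tested subunit genes (x axis, null over control) with its 95% interval, ordered by size within each complex; dashed lines stand at 1.2-fold. Nearly all points lie close to 0, only Ndufa1 (black) passed an adjusted p of 0.05, and the intervals of Ndufs5, Ndufa12 and Atp5g1 reach past 1.5-fold.

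Complex I, the NADH dehydrogenase, is built from a module that oxidises NADH (N), a module that reduces ubiquinone (Q) and a membrane arm that pumps protons. The median log2 fold change was -0.022 over 10 N module genes, 0.029 over 6 Q module genes and 0.0033 over 19 membrane arm genes. Ndufv1, the subunit that binds FMN and accepts electrons from NADH, stood at 612, 592 and 534 CPM in controls and 600, 594 and 603 CPM in nulls. Ndufs1, the largest iron-sulfur subunit of the N module, stood at 643, 600 and 577 CPM in controls and 622, 633 and 623 CPM in nulls. In both genes the null values fell inside the control range, with log2 fold changes of 0.05 ± 0.05 (SE) each.

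Ndufa1 was the only member called. It encodes a small subunit of the membrane arm that is required for assembly of complex I, and lies on chrX:37187588-37191163 (minus strand, mm10). Its CPM was 88.2, 84.6 and 79.5 in controls and 94.0, 95.5 and 99.5 in nulls. Every null library stood above every control, as in 12.6% of all genes. The means were 84.1 ± 4.40 and 96.4 ± 2.81 CPM (SD, n = 3), which is 1.15-fold higher in nulls, with a log2 fold change of 0.20 ± 0.05 (SE), a 95% interval of 0.09 to 0.30 and an adjusted p of 0.0415 by edgeR. The call was lost when any of control 2, control 3 or the 3 nulls was left out (adjusted p 0.0575 to 0.142 by edgeR), and without null 1 and null 3 together it was 0.443. It was kept with a term for sex (0.0456) and by DESeq2 (0.00987), and missed by limma-voom (0.0568). The sex term took control 3 and null 2 as female and the other libraries as male. It therefore does not adjust for the Xist counts of null 1 and null 3. The other members on the X chromosome, Ndufb11 and Cox7b, had log2 fold changes of 0.05 and -0.02 and were not called.

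Among the other complex I genes, Ndufv3, a small N module subunit, stood at 170, 166 and 163 CPM in controls and 151, 150 and 161 CPM in nulls. The groups did not overlap, nulls being lower as in 14.0% of all genes, but the log2 fold change of -0.11 ± 0.04 did not pass (adjusted p 0.122, edgeR). The most negative estimates came from Ndufs5 and Ndufa12, both of which share more than 20% of their 50-base windows with another gene, so reads could be split between copies and their values are uncertain. Ndufs5 had 611, 453 and 400 counts in controls and 536, 246 and 329 in nulls, a log2 fold change of -0.43 ± 0.26. Its groups overlapped through null 1, and with that library left out it was called lower (-0.77, adjusted p 0.0195, edgeR). Ndufa12 had 51.8, 52.1 and 36.0 CPM in controls and 32.4, 37.1 and 36.2 CPM in nulls. Control 3 stood with the nulls rather than with the other controls, and the log2 fold change of -0.41 ± 0.15 did not pass by edgeR (adjusted p 0.218) but did by DESeq2 (0.0171) and by edgeR without control 3 (0.00207). Ndufs3, a Q module subunit with similar copies, differed by -0.16 ± 0.07 in log2 (adjusted p 0.231, edgeR). The product of Ndufa4, a complex IV subunit despite its name, had transcript levels of 305 ± 26.5 and 300 ± 9.54 CPM.

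Complex II oxidises succinate and links the chain to the citric acid cycle. Sdha, the flavoprotein with the succinate site, stood at 1307, 1193 and 1229 CPM in controls and 1218, 1183 and 1188 CPM in nulls. Its partner Sdhb, the iron-sulfur subunit, stood at 497, 494 and 456 CPM in controls and 456, 460 and 487 CPM in nulls. Null 2 and null 3 lay just below the lowest control in Sdha, while the nulls spread over most of the control range in Sdhb. The log2 fold changes were -0.06 ± 0.04 and -0.04 ± 0.05 (adjusted p 0.547 and 0.665, edgeR). The membrane anchors Sdhc and Sdhd had log2 fold changes of -0.00 and 0.03. None of the 4 was called, and all 4 intervals lay within 1.2-fold.

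Complex III passes electrons from ubiquinol to cytochrome c. Uqcrfs1, the Rieske iron-sulfur protein, stood at 467, 457 and 423 CPM in controls and 447, 444 and 449 CPM in nulls. Uqcrc1, a core subunit, stood at 801, 791 and 706 CPM in controls and 750, 732 and 763 CPM in nulls. For both, the 3 nulls fell between control 3 and the other controls. The 8 genes ranged from -0.08 ± 0.08 in Uqcrq to 0.08 ± 0.05 in Uqcr10 on the log2 scale, both small subunits, and none was called (8 of 8 intervals within 1.2-fold). Cyc1, the cytochrome subunit of this complex, had a log2 fold change of -0.05 ± 0.06, and Cycs, the soluble cytochrome c that carries electrons onward, 0.10 ± 0.05 (adjusted p 0.344, edgeR).

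In complex IV, cytochrome c oxidase, several positions are filled by either of a pair of isoforms. Cox4i1, the common form of the largest nuclear subunit, stood at 990, 943 and 850 CPM in controls and 961, 952 and 988 CPM in nulls, a log2 fold change of 0.06 ± 0.06. Cox5a, its neighbour in the complex, had a log2 fold change of -0.06 ± 0.06. Cox6b1 had the highest level per kb of annotated exon, 800 CPM in controls, and stood at 566 ± 40.7 and 558 ± 26.1 CPM in the 2 groups. Its testis counterpart Cox6b2 was at 4.02 ± 0.846 and 3.65 ± 0.321 CPM. Cox4i2, an isoform known for its place in oxygen sensing, stood at 7.75, 8.11 and 9.99 CPM in controls and 7.56, 6.46 and 6.996 CPM in nulls. All nulls were below all controls, as in 14.0% of all genes. The gap was narrow, and the log2 fold change of -0.30 ± 0.12 did not pass (adjusted p 0.186, edgeR). Control 3 was the highest library, and without it the log2 fold change was -0.17.

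In the heart and skeletal muscle of mice, Cox6a2, Cox7a1 and Cox8b take the place of the ubiquitous Cox6a1, Cox7a2 and Cox8a as the tissue matures. Cox8a stood at 239, 215 and 196 CPM in controls and 169, 179 and 197 CPM in nulls. Only null 3 reached the range of the controls, and the log2 fold change was -0.26 ± 0.08 (means 217 ± 21.4 and 181 ± 13.9 CPM, adjusted p 0.132 by edgeR and 0.0155 by DESeq2). Its counterpart Cox8b stood at 91.4, 77.6 and 69.6 CPM in controls and 93.7, 85.3 and 84.5 CPM in nulls, with a log2 fold change of 0.14 ± 0.10 and overlapping groups (adjusted p 0.489, edgeR). Cox6a1 stood at 299, 287 and 250 CPM in controls and 231, 239 and 262 CPM in nulls. Control 3 and null 3 overlapped, and the log2 fold change of -0.19 ± 0.07 did not pass (adjusted p 0.194, edgeR), although without control 3 it did (0.0317). Of the 50-base windows of Cox6a1, 12.3% also occur in another gene, so its reads too could be split between copies. Cox6a2 stood at 370 ± 46.7 and 366 ± 15.9 CPM, Cox7a1 at 111 ± 8.83 and 113 ± 3.09 CPM, and Cox7a2 at 320 ± 20.4 and 327 ± 14.97 CPM, with log2 fold changes of -0.02, 0.03 and 0.03.

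Ratios of the heart form to the ubiquitous form within a library need no scaling and show the pairs side by side. For Cox8b over Cox8a the ratio of counts was 0.383, 0.360 and 0.355 in controls and 0.554, 0.477 and 0.430 in nulls. Every null lay above every control, and the mean log2 ratio was higher by 0.41 in nulls (1.33-fold). For Cox6a2 over Cox6a1 the ratio was 1.39, 1.30 and 1.29 in controls and 1.51, 1.59 and 1.40 in nulls. The groups again did not overlap, though null 3 exceeded control 1 by very little, and the difference in mean log2 ratio was 0.18. For Cox7a1 over Cox7a2 the ratio was 0.359, 0.326 and 0.354 in controls and 0.372, 0.347 and 0.322 in nulls. These groups overlapped fully, with a difference in mean log2 ratio of 0.0013. The ratio of Cox4i2 to Cox4i1 was below 0.012 in all 6 libraries, with overlapping groups. Its mean log2 ratio differed by -0.36, and by -0.18 without control 3. The ratios are a description and carry no test, and how often ratios of other gene pairs separate the groups was not computed. They were formed after earlier results of these data were known, and none of the 6 genes of the 3 pairs passed the test by edgeR.

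**Figure D2:**
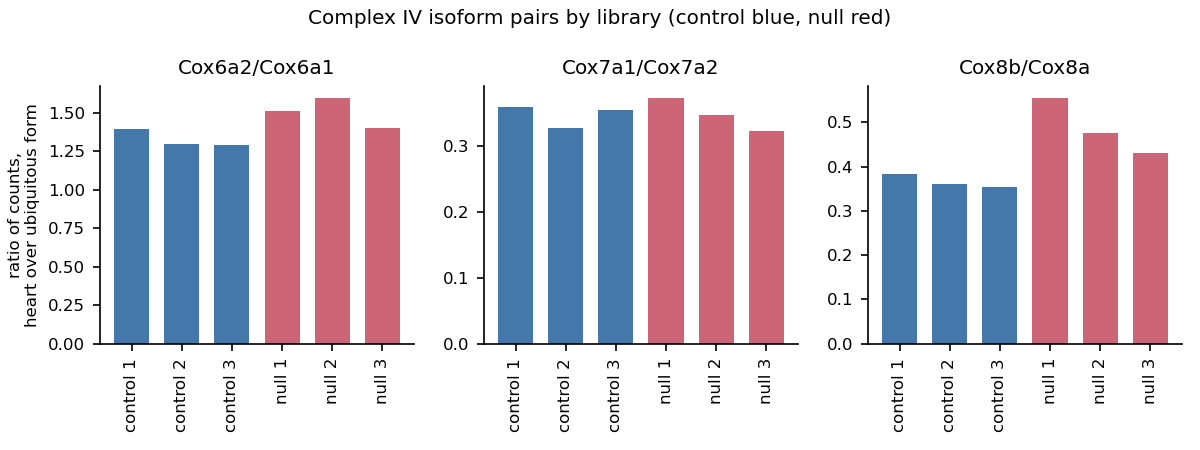
Ratio of counts of the heart and muscle form to the ubiquitous form (y axis, each panel with its own scale from 0) in each of the 6 libraries. The null bars stand above the control bars for Cox6a2/Cox6a1 and Cox8b/Cox8a, while those of Cox7a1/Cox7a2 overlap.

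Promoter sequences are printed for Ndufa1, the called member, and for Cox6a1, Cox8a and Cox8b, from isoform pairs whose ratios did not overlap between groups. Cox6a1, Cox8a and Cox8b were not called by edgeR, and Cox6a2 of the same pairs had no promoter entry. RefSeq sequence of GRCm38.p6 is given 5′ to 3′ for 170 bases before to 2 bases after the start, with motif matches in capitals. The motifs are that of NRF1, a palindrome whose letters are the first capitals of the Cox6a1 stretch, and the ETS motif of GABPA (CCGGAAG, or CTTCCGG on the other strand). All 4 genes lie on the minus strand, at chrX:37191237-37191408 for Ndufa1, chr5:115348957-115349128 for Cox6a1, chr19:7217615-7217786 for Cox8a and chr7:140900445-140900616 for Cox8b.
Ndufa1: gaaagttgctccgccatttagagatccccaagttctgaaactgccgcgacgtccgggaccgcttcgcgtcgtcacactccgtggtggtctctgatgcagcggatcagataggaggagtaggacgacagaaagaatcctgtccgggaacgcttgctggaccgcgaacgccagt
Cox6a1: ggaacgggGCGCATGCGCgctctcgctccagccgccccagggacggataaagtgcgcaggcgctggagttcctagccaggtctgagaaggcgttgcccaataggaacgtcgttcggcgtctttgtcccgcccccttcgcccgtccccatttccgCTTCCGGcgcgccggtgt
Cox8a: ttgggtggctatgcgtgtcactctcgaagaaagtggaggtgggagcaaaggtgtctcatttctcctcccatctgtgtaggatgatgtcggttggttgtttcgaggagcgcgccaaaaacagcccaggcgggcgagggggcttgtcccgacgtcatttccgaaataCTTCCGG
Cox8b: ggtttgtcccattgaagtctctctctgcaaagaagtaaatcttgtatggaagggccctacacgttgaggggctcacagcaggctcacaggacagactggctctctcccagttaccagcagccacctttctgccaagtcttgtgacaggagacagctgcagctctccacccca
Cox6a1 held an NRF1 match beginning 162 bases before the start and an ETS match beginning 16 bases before it. Cox8a held ETS matches beginning 5 bases before and 33 bases after the start, the second outside the stretch printed. Neither motif was found in the windows of Ndufa1 and Cox8b. RefSeq places the start of Ndufa1 upstream of the gene coordinates given above, so its window did not reach the start by those coordinates. These matches are letters in a window and say nothing of binding.

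Over the 68 members with an entry in the RefSeq promoter table, searched from 250 bases before to 50 bases after the start on both strands, the NRF1 motif was found in 5 (7.35%) against 1.07% of all 27025 genes in the table. The ETS motif was found in 16 (23.5%) against 9.93%, and an extended YY1 motif around the core ATGGC in 4 (5.88%) against 0.755%. The 4 genes with the YY1 motif, Ndufa9, Ndufs4, Ndufs6 and Ndufs7, all belong to complex I. At least 1 of the 3 motifs was found in 23 of the 68 (33.8%), against 11.3% of all genes. Those include genes not expressed here, and no comparison with genes matched for expression or base composition was made. Whether these shares are particular to the subunits was therefore not tested. The ETS letters were found in 2 of 3 complex II genes, 2 of 5 in complex III, 3 of 13 in complex IV, 5 of 15 in complex V and 4 of 32 in complex I.

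Complex V makes ATP in its F1 sector, which is turned by the Fo sector in the membrane. The catalytic subunits were the most abundant members: Atp5b at 5611, 5393 and 4979 CPM in controls and 5267, 5339 and 5373 CPM in nulls, and Atp5a1 at 4560, 4611 and 4362 CPM in controls and 4638, 4605 and 4654 CPM in nulls. Their log2 fold changes were -0.00028 ± 0.05 and 0.04 ± 0.04. Atp5c1, the central stalk subunit that rotates inside them, stood at 851, 844 and 780 CPM in controls and 882, 862 and 865 CPM in nulls. Every null was above every control, as in 12.6% of all genes, but the log2 fold change of 0.08 ± 0.05 did not pass (adjusted p 0.381, edgeR). Median log2 fold changes were -0.00028 over 5 F1 genes and -0.023 over 11 genes of the Fo sector and stalk.

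Atp5g1, Atp5g2 and Atp5g3 encode the same mature c subunit of the rotor ring with different import sequences. Atp5g3 held nearly all counts given to these genes, at 1143 ± 84.2 and 1111 ± 9.39 CPM (log2 fold change -0.04 ± 0.05). Atp5g1 had 639, 263 and 525 counts in controls and 585, 487 and 955 in nulls. Control 2 was low and null 3 high, so that its log2 fold change of 0.48 ± 0.37, the highest of all members, had an interval from -0.49 to 1.44 (adjusted p 0.558, edgeR). In other genes, 10.2% of the 50-base windows of Atp5g1 also occur. Atp5g2 stood at 2.35 ± 0.344 and 2.06 ± 0.176 CPM, and 36.7% of its 50-base windows occur in other genes. Reads of Atp5g1 and Atp5g2 could be split between copies, so their levels beside Atp5g3 are uncertain. Atp5l, a small membrane subunit, had the lowest estimate of the complex, -0.19 ± 0.08 (adjusted p 0.235, edgeR), but 68.5% of its 50-base windows occur in other genes.

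Levels differed far more between subunits than between groups. Per kb of exon, counting every annotated exon of a gene, the lowest control mean of complex I was 9.11 CPM (Ndufb4). Exon length so counted can far exceed that of the coding transcripts, so values and ranks per kb depend in part on annotation. Atp5l has 6443 exon bases but 495 distinct 50-base windows in its coding transcripts, and Atp5b has 4237 and 1867. The control means ran from 120 (Sdhc) to 452 (Sdhd) in complex II, from 97.0 (Uqcrb) to 429 (Uqcr10) in complex III, from 3.63 (Cox6b2) to 800 (Cox6b1) in complex IV and from 1.40 (Atp5g2) to 1439 (Atp5a1) in complex V. The medians per kb were 108 CPM in complex I, 258 in complex II, 291 in complex III, 220 in complex IV and 124 in complex V. Subunits of a complex are needed in fixed proportion, yet several transcripts stood far below those of their partners, some of them from genes with copies elsewhere. The 46 members with no 50-base window found in another gene had a median of 184 CPM per kb, the 24 with up to 20% of windows shared had 132, and the 11 with more than 20% shared had 29.7. How the authors' counting treated reads that match several genes is not given in the sources used here, so the levels of these 11 genes (Ndufs3, Ndufa12, Ndufb4, Ndufs5, Uqcrb, Cox7c, Cox5b, Atp5f1, Atp5h, Atp5l and Atp5g2) are uncertain. Their median log2 fold change was -0.16 with 10 of 11 below 0 and none called, against -0.00077 over the 46 genes without shared windows.

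**Figure D3:**
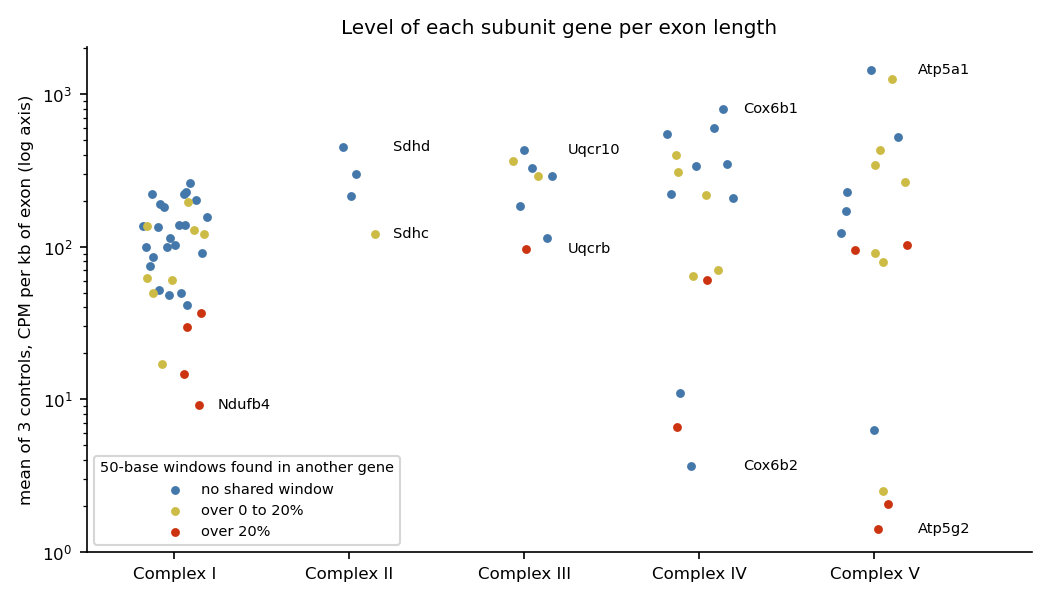
Mean of the 3 controls in CPM per kb of exon (log axis) for 80 of the tested subunit genes, by complex; colour gives the share of 50-base windows also found in another gene, and the lowest gene of each complex and the highest of complexes II to V are named. Genes with over 20% shared windows lie between 1.40 and 102 CPM per kb, below the median of their complex.

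The subunits varied together between libraries, and that variation lay among the controls. Relative to each gene's mean over the 6 libraries, the median member stood 0.08, 0.03 and -0.11 in controls 1, 2 and 3 and -0.01, -0.02 and 0.02 in nulls 1, 2 and 3 (log2 CPM). Control 1 was the highest library for 55 of 81 members and control 3 the lowest for 60 of 81 (74.1%), where control 3 was lowest for 19.5% of all genes. All 3 nulls fell inside the range of the 3 controls in 47 of 81 members (58.0%), against 18.6% of all genes. The SD of log2 CPM was larger among controls than among nulls in 73 of 81 members, with medians of 0.107 and 0.040, and in 58.3% of all genes. Groups did not overlap in 4 of 81 members (4.94%; Ndufa1 and Atp5c1 above, Ndufv3 and Cox4i2 below), against 26.6% of all genes.

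**Figure D4:**
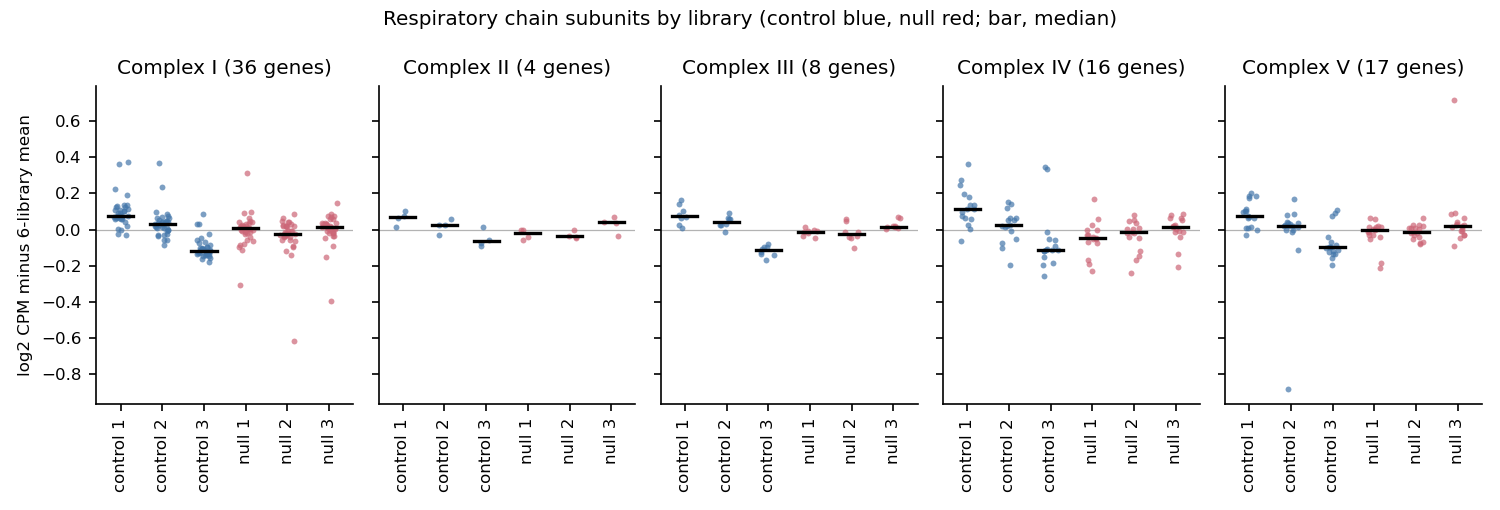
Log2 CPM of each tested subunit gene minus its mean over the 6 libraries (y axis), by library and complex; points are genes and bars are medians. In all 5 complexes the median is highest in control 1 and lowest in control 3, and the 3 nulls lie between them close to 0.

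Other mitochondrial and muscle genes followed the same order among the controls. The median deviations in controls 1, 2 and 3 were 0.07, 0.04 and -0.07 for 78 mitochondrial ribosomal protein genes, 0.05, -0.02 and -0.08 for 19 citric acid cycle genes and 0.04, 0.01 and -0.10 for 14 cardiomyocyte markers. Cytosolic ribosomal protein genes (77) had 0.01, 0.02 and -0.01. Cardiomyocyte markers summed to 86786 CPM in control 3, the lowest of the 6 libraries (others 91063 to 94587), and 12 of 14 were lowest there. Control 3 also had the highest sums of the erythroid markers (5076 CPM, others 1207 to 2892), of the liver markers (23.8 CPM, others 3.00 to 10.8) and of the 4 smooth muscle markers (1208 CPM, others 749 to 811). The part of these other tissues and cells in the low subunit values of control 3 was not tested. In bulk tissue, fewer cells of a type and less RNA per cell cannot be told apart.

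Several cell type markers moved between the groups, where 2.40% of all genes were called higher and 2.97% lower by edgeR. Of the markers tested, 6 of 10 endothelial genes fell (summed CPM 1868 to 2090 in controls and 1543 to 1685 in nulls), 3 of 8 fibroblast genes rose (6947 to 8224 against 8629 to 9609), 5 of 8 macrophage genes rose (76.1 to 87.2 against 97.0 to 120.7) and 2 of 6 epicardial genes fell (195 to 227 against 172 to 193). Of the 14 cardiomyocyte markers only Actc1 fell, and their sums were 86786 to 94587 CPM in controls and 91063 to 92935 CPM in nulls. No marker of these 5 lists stood at 0. None was called of 7 erythroid, 4 smooth muscle, 5 atrial and 4 liver genes tested, with median log2 fold changes of -0.92, -0.64, 0.10 and -0.64. Whether the cell mixture has a part in the call of Ndufa1 was not tested.

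Of the genes that build and supply the chain, few differed. The 12 mitochondrial lists held 252 tested genes that are not members, of which 2 rose and none fell by edgeR. Their median log2 fold change was -0.0077. Over all genes, 2.40% were called higher and 2.97% lower. None of the tested assembly factors was called (16 for complex I, 10 for complexes II and III, 18 for complex IV and 5 for complex V), and list medians lay between -0.026 and 0.011. None was called among 19 further subunits and electron carriers, 17 genes of mitochondrial DNA maintenance and transcription, 15 carriers and energy transfer genes, 20 genes of cristae, import and dynamics, 16 stress response genes or 78 mitochondrial ribosomal proteins. Most of these lists are too short for a count of 0 to stand apart from the shares over all genes. The ADP/ATP carrier of muscle, Slc25a4, had a log2 fold change of 0.06 ± 0.05, and citrate synthase, Cs, -0.02 ± 0.04.

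The 2 genes that rose were Ppargc1a and Pdk2. Ppargc1a, the coactivator that drives mitochondrial biogenesis in heart, stood at 238, 239 and 241 CPM in controls and 284, 298 and 291 CPM in nulls. The controls were nearly equal and all nulls stood above them, as in 12.6% of all genes. The means were 239 ± 1.40 and 291 ± 6.70 CPM, a 1.22-fold difference (log2 fold change 0.28 ± 0.04, adjusted p 0.00394 by edgeR). Of 16 alternatives, only the fit without null 1 and null 3 lost this call (adjusted p 0.123 by edgeR, with 1 null library left and assumed to vary like the controls). Among its partners the log2 fold change of Nrf1 was -0.10 ± 0.04 (adjusted p 0.221), that of Gabpa 0.02 ± 0.04, Esrra -0.01 ± 0.05, Esrrg 0.13 ± 0.04 (adjusted p 0.0923) and Tfam, the packaging and transcription factor of mitochondrial DNA, -0.01 ± 0.04, none of them called by edgeR. Pdk2, a kinase that inhibits pyruvate dehydrogenase, stood at 234, 219 and 210 CPM in controls and 253, 262 and 255 CPM in nulls. All nulls were above all controls, as in 12.6% of all genes. The log2 fold change was 0.22 ± 0.05, with an adjusted p of 0.0265 by edgeR. That call was lost when control 2 or any of the nulls was left out. Cytosolic ribosomal proteins, given for comparison, had 1 gene lower of 77 tested, where 2.97% of all genes were lower. That gene was Rpl10a (log2 fold change -0.47 ± 0.08, adjusted p 0.0121 by edgeR).

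**Figure D5:**
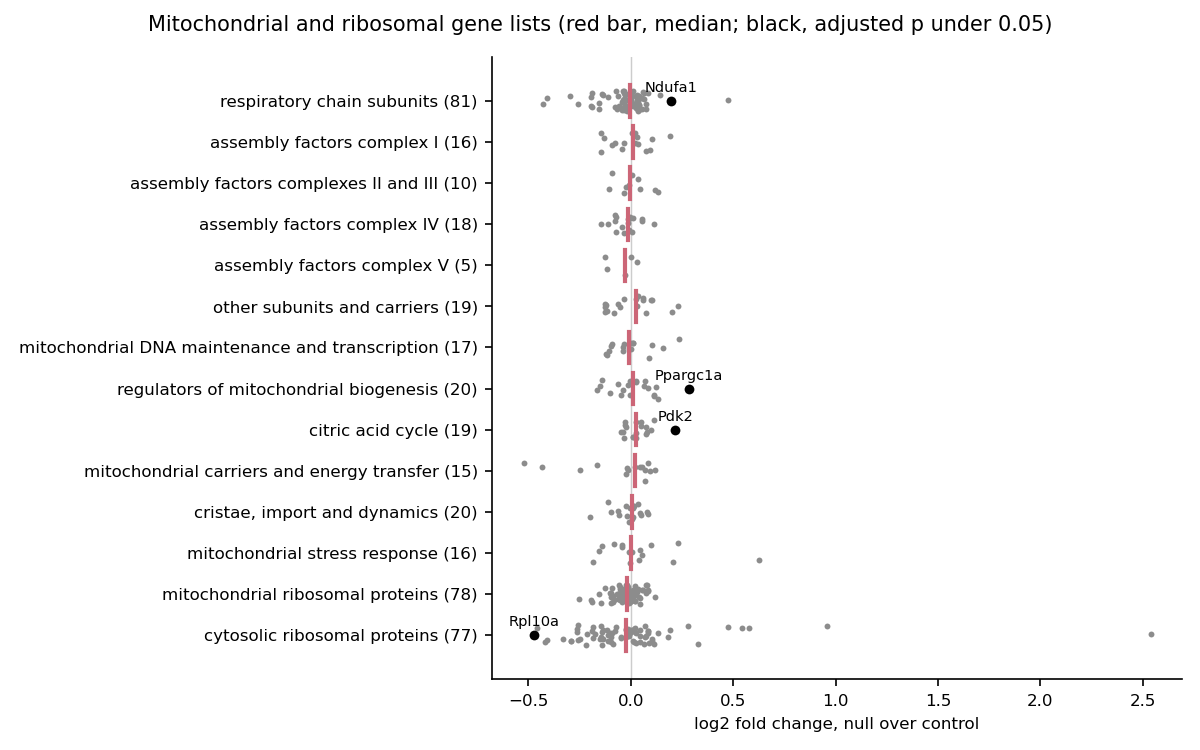
Log2 fold change (x axis, null over control) of tested genes in each list, with the number tested in brackets; red bars are list medians and black points the genes with an adjusted p under 0.05. Medians of all 14 rows lie within 0.03 of 0, and the called genes are Ndufa1, Ppargc1a, Pdk2 and Rpl10a.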

How the data were processed

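RNA of mouse embryonic heart ventricle was sequenced in 3 control and 3 conditional null libraries. The authors deposited whole-number counts per gene, not normalised, 1 file per library. Build mm10 and the tools STAR, HTSeq 0.6.1p1, DESeq2 and cutadapt 1.13 are named per the submitters' processing notes. The order of steps, strand setting and annotation release were not given in the sources used here. Of 25006 identifiers, 24991 matched GENCODE M21 on the same build.

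From these counts, genes with at least 60 summed counts were tested with edgeR 4.0.16 in R 4.3.3 (TMM scaling, robust quasi-likelihood F test, two-sided, group only, Benjamini-Hochberg over 14773 genes, called at an adjusted p under 0.05). The procedure was tested on simulated data, where the share of false calls exceeded the nominal level, so calls near the threshold are less certain than their adjusted p states. Standard errors come from the fold change and its F statistic. Mean ± SD of CPM are over n = 3. Counting floors cover counting error only, since reads lacking molecular identifiers cannot be taken as independent molecules. Deviations between libraries use log2 of CPM with 0.5 added. Levels per kb use the length of all annotated exons of a gene. Shared sequence was measured as the percentage of 50-base windows of a gene's coding transcripts found in another gene. Promoters were matched by symbol in a RefSeq table (68 of 83 members). DESeq2 1.42.0, limma-voom (limma 3.58.1), other scalings and filters, each library left out, a sex term and a replicate block were alternatives.

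The members, the gene lists, the tests and the alternatives were chosen with earlier results of these data known. Named were called members, the extremes of each complex by fold change and by level per length, catalytic subunits, isoform pairs, members on X, and called list genes; Ndufv3, Ndufa12, Ndufs3, Cox5b, Cox7c, Atp5c1, Slc25a4, Cs, Esrrg, the marker Actc1 and the genes holding the YY1 motif were named after their values were seen. The values of 1 member, which is in the counts of members, are not reported here.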

Additional observations from a re-analysis of the deposited data

How the results depend on the processing

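No alternative called more than 1 member higher or 2 lower. The call of Ndufa1 was kept under the other scalings and filters, DESeq2, the sex term and removal of haemoglobin genes, and lost in 8 of 16 alternatives. Members called higher numbered 1, and 0 under limma-voom, under the replicate block and without null 1 and null 3, and 0 to 1 with each library left out. Members called lower numbered 0, and 2 by DESeq2 (Ndufa12 and Cox8a) and 0 to 2 with each library left out (Ndufa12 and Cox6a1 without control 3, Ndufs5 without null 1). Genes called over the whole table numbered 794, 35 without null 1 and null 3 and 246 to 934 with each library left out; the fits with fewer libraries have less replication. Of the 41 named members not called, 4 were called in some alternative of 16 and 19 changed sign in some. The median over members ranged from -0.048 without control 3 to 0.031 without control 1. No median moved by more than its spread between replicates. Leaving out 1 of 3 libraries could hardly move a median that far, so that limit is no measure of stability. Replacing Atp5s and Cox7a2l by Ndufab1 and Cyc1, with Ndufa4 placed in complex IV, left the counts of called members at 1 higher and 0 lower. Same-numbered libraries did not deviate together (correlations across genes of -0.04, -0.12 and -0.17). With so few libraries this cannot exclude a pairing, and the labels do not say whether the replicate numbers pair the samples. A replicate block gave 573 called genes and 0 members, and Ndufa1 an adjusted p of 0.0883 by edgeR. Without control 3, the library with the highest Cox4i2, the log2 fold change of Cox4i2 was -0.17 and the difference of its log2 ratio to Cox4i1 -0.18, against -0.30 and -0.36. At this depth Cox8c and Cox7b2 fell under the count minimum and were not tested.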
